A study of Mus musculus with 16 samples.

Results

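IL-6 was added to TGFb in cultures of wild-type (WT) mouse CD4+ T cells, and gene expression was compared with that of WT cells cultured with TGFb alone. The comparison used 4 of the 16 Affymetrix arrays of the series, chosen by the genotype and condition in their sample titles, with 2 arrays for WT IL-6 with TGFb and 2 for WT TGFb. It covered the 13007 named genes that reached the level minimum, and each gene was read as the log2 of its deposited intensity.

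The WT cells carried floxed Stat3 alleles without a Cre recombinase, so Stat3 was intact. Naive cells (CD4+, CD44-, CD62L+) were sorted and stimulated with antibodies to CD3 and CD28, in the first group with IL-6 at 10 and TGFb at 2.5 ug/ml, and in the second with the same amount of TGFb alone. The labels give the doses in this unit. RNA was taken after 3 days. Further groups bear on the comparison, which are WT cells in IL-6 or in medium, and STAT3-deficient cells in IL-6 with TGFb or in TGFb. The STAT3-deficient cells carried the same floxed alleles with CD4 Cre, which acts in T cells during their development in the thymus and also in CD8 T cells. The labels do not say whether the replicate numbers stand for separate animals, so each p-value measures only the spread between these samples.

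IL-6 binds its receptor together with the shared chain gp130, and Janus kinases on gp130 then phosphorylate STAT3, a transcription factor that enters the nucleus. TGFb acts through SMAD factors. In naive mouse CD4+ T cells TGFb alone favours Foxp3, the factor of regulatory T cells, while TGFb with IL-6 is the classical condition for Th17 cells, which make IL-17. The comparison therefore asks what IL-6 adds in cells that already receive TGFb.

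The 4 arrays were close in overall brightness, with medians of 68 to 69 intensity units and log2 75th percentiles between 7.98 and 8.07. All replicate 1 arrays carried female-type and all replicate 2 arrays male-type levels of the sex-linked genes Xist and Eif2s3y, so the 2 replicates of a group did not come from the same cells, and differences were also read within each replicate number. Actb RNA read lower at its 5′ than at its 3′ end, by a log2 difference of -0.21 and -0.88 in replicates 1 and 2 of WT IL-6 with TGFb and of -0.45 and -0.89 in those of WT TGFb. This measure of RNA integrity therefore separated the replicate numbers more than the groups. The 11 T cell markers measured summed to between 42640 and 43964 intensity units with IL-6 and TGFb and to between 37205 and 38334 with TGFb, led by Cd3d. Of 5 NK cell markers 3 stayed under the minimum, Ncr1 among them, yet the summed level was 4440 to 7499 units with IL-6 and TGFb and 825 to 1749 with TGFb, and Klrd1 was the highest of them. All 6 mast cell and basophil markers and all 3 erythroid markers were under the minimum, as was Tyrobp of the myeloid list. In a bulk culture, fewer cells that express a gene and less RNA per cell cannot be told apart.

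Target genes were read to check the labelled treatments. Skil, a SMAD-bound repressor that TGFb induces, read 12.01 and 12.30 in the 2 WT TGFb arrays, against 9.29 and 10.19 in WT medium. Smad7, the inhibitory SMAD, read 9.26 and 9.64 in WT TGFb against 7.84 and 8.21 in WT medium. Foxp3 went against this in replicate 1, at 4.81 in WT TGFb and 4.39 in WT medium, whereas replicate 2 read 9.99 in WT TGFb and 5.0 in WT medium. The WT TGFb array of replicate 1 thus showed a TGFb response in Skil and Smad7 without Foxp3. Stat3, the targeted gene, read 11.82 and 12.18 in WT IL-6 with TGFb and 11.79 and 12.18 in WT TGFb. In STAT3-deficient cells Stat3 read 9.01 and 9.56 with IL-6 and TGFb, and 8.46 and 10.46 with TGFb, below all 4 of these WT arrays.

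With IL-6 added, 59 genes rose (0.454% of the 13007 tested) and 7 fell (0.0538%) at an adjusted p under 0.05 in limma, the threshold at which a gene is said to be called. Cytokines, genes of the protease inhibitor list and homing receptors were among those with the largest rises. The 66 called genes (0.507%) all changed at least 2-fold, with the smallest change at 1.06 on the log2 scale, and in none of them did the groups overlap. The median log2 change was 2.22 over the 59 genes that rose and -2.02 over the 7 that fell, against -0.05 over all genes tested. Unadjusted, 941 genes (7.23%) passed a p of 0.05. With the replicate number as a block, 141 genes were called (1.08%), of which 108 rose (0.83%) and 33 fell (0.254%), and these 141 held all 66. The last genes inside the threshold were Ddr1, B3gnt8 and Upf2, at adjusted p = 0.0425, 0.0432 and 0.0474, and the first outside were Ly6k, Tspan5 and Phgdh, at 0.0517, 0.0553 and 0.0553.

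The differences of replicate 1 and replicate 2 correlated at r = 0.66 across 13007 genes, which are not independent of each other. Of all genes tested, 8211 (63.1%) had the same sign in both replicates. At least 2-fold higher in both were 206 genes (1.58%), at least 2-fold lower in both were 143 (1.1%), and 1 gene (0.00769%), the chemokine gene Xcl1, differed 2-fold in opposite directions. Called genes were mostly higher (59 to 7), less so in the fit to the 4 arrays compared (118 to 64) and with array weights (259 to 150), whereas over all genes tested the difference was positive in 5564 and negative in 7443. Groups of 2 that do not overlap were frequent, with 2245 genes (17.3%) higher and 3456 (26.6%) lower, so a lack of overlap alone says little about a gene.

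**Figure D1:**
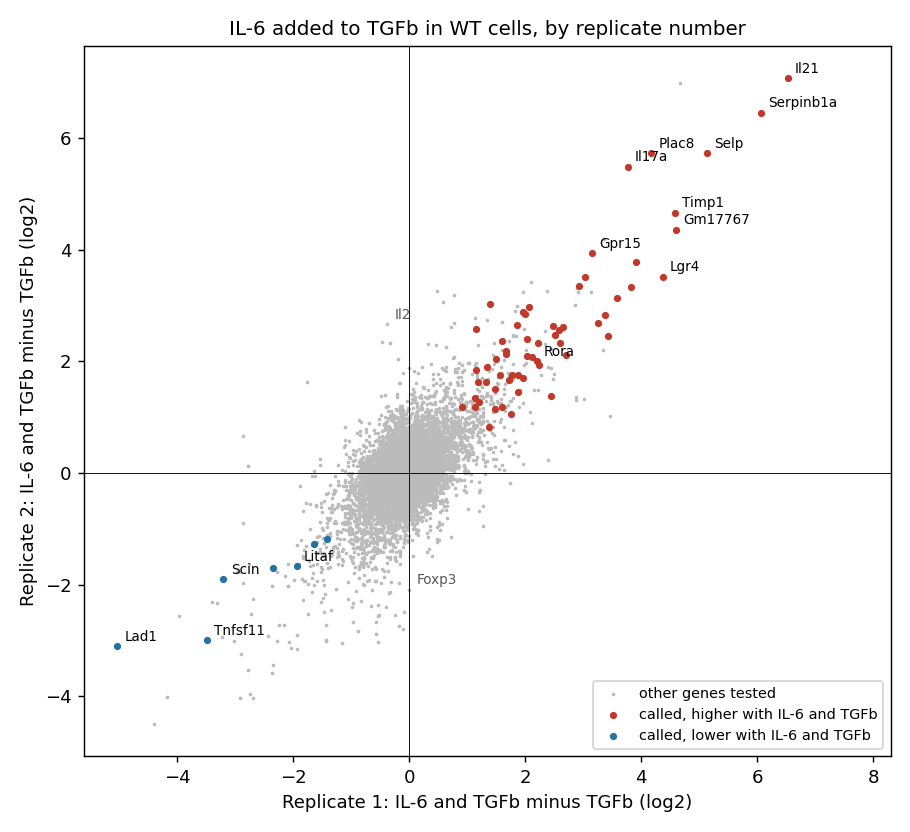
Log2 difference between WT IL-6 with TGFb and WT TGFb in replicate 1 (horizontal axis) and in replicate 2 (vertical axis) for 13007 genes, with the called genes coloured and the largest named. The 59 genes that rose and the 7 that fell lie on the same side of 0 on both axes.

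The calls depended on which of the 4 arrays were kept. With 1 of the 4 arrays left out, 14 genes were called without WT IL-6 with TGFb replicate 1, 17 without its replicate 2, 13 without WT TGFb replicate 1 and 12 without WT TGFb replicate 2. Of 27 called genes named by rule, Il21, Gm17767, Lgr4, Gpr15, Cwh43 and Litaf kept the call whichever array was left out. Tnfsf11 kept it in 2 of the 4 fits, Pdpn, Lad1 and St14 in 1, and the other 17 in 0, all 27 with the same sign throughout.

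The sequence of 2 promoter regions is shown because each bears on genes that rose. The DNA letters TTCNNNGAA, where N is any base, are the core motif that STAT factors bind, and the motif reads the same on both strands. It was searched in the RefSeq promoter windows of the GRCm38.p6 build, which hold 250 bases before and 50 after each gene's start. Among genes that rose, 3 of the 50 with a window held it (6%), which were Sbno2, Tnip2 and A230072C01Rik, and among those that fell 0 of 5 did. It stood in 8.19% of the 10505 tested genes that had a window and in 8.3% of all 32851 windows. These shares were not above those of all genes. Maf, a called Th17 gene, had no window and was not searched. Of the other called Th17 genes, STAT3 targets and feedback inhibitors, 1 had the motif, namely Sbno2, in 2 of its 3 windows. The first of these is shown, with the motif in capitals (GRCm38.p6, chr10:80102703-80102788, minus strand), and the motif's first base lies 26 bases before that annotated start. A match is a description of the letters and not a binding site.

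Sbno2: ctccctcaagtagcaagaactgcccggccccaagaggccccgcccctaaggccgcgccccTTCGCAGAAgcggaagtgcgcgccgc

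Tmem176a and Tmem176b, which encode ion channel-like membrane proteins marking mouse Th17 cells, rose together and are neighbours that are read in opposite directions. The stretch between their most upstream annotated starts (GRCm38.p6, chr6:48841375-48841482, plus strand, 108 bases, 63.9% G and C) is shown because the 2 genes face away from each other across it. The table gives 2 starts for Tmem176a and 3 for Tmem176b.

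Tmem176a and Tmem176b: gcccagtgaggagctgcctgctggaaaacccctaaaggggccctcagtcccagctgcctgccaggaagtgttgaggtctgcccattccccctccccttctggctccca

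Of the 23 lists, the Th17 list held the most genes that rose. All lists were chosen with earlier results of these data known, so their counts are not independent support. Of the 30 members of the Th17 list 26 were measured, of which 7 rose and 0 fell, beside 0.454% and 0.0538% of all genes. The median log2 difference of the 26 was 1.19, against -0.05 for all genes. In 17 of the 26 both WT IL-6 with TGFb arrays lay above both WT TGFb arrays (17.3% of all genes), and in 0 was the order the reverse. The 7 were the cytokines Il21 and Il17a, the transcription factors Maf and Rora, and the membrane proteins Pdpn, Tmem176a and Tmem176b. With the replicate block Il1r1 and Ltb4r1 joined them.

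Il21 encodes the cytokine IL-21, which acts back on Th17 cells and on B cells. It read 12.39 and 11.54 in WT IL-6 with TGFb, against 5.86 and 4.46 in WT TGFb. This was the largest change of all (log2 change 6.80 ± 0.53 SE, limma adjusted p = 0.00054), a 112-fold difference between group means. Since the WT TGFb mean lay under the level minimum of log2 6, that ratio depends on the background, and the WT IL-6 with TGFb mean stood 62.4-fold above the minimum itself.

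Il17a encodes IL-17A, the cytokine that names the Th17 cell. It read 10.16 and 11.58 with IL-6 and TGFb, against 6.39 and 6.09 with TGFb. The groups were far apart, and the arrays with IL-6 and TGFb differed more from each other than those with TGFb. The log2 change was 4.63 ± 0.81 (SE, limma adjusted p = 0.0307). This SE pools the spread within all groups of the series. Among them is STAT3-deficient TGFb, where 1 array with a doubted label read Il17a high. Levels of Il17a in WT TGFb were near those of WT medium, at 6.27 and 6.09.

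Maf encodes c-Maf, a factor for Il21 and Il10 transcription. It read 12.58 and 12.51 in WT IL-6 with TGFb and 9.92 and 9.90 in WT TGFb, with little spread in either group (log2 change 2.63 ± 0.47 SE, adjusted p = 0.0348). Rora encodes RORα, the partner of RORγt in Th17 cells. Its representative probe set read 11.58 and 11.25 with IL-6 and TGFb and 9.38 and 9.25 with TGFb (log2 change 2.11 ± 0.37 SE, adjusted p = 0.0307). Rora has 8 further probe sets, of which 1 that reached the minimum had the opposite sign. In the limma fit to the 8 WT arrays alone, Maf and Rora lost the call, at adjusted p = 0.0799 and 0.0667.

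Pdpn encodes podoplanin, a surface glycoprotein found on some Th17 cells. It read 10.65 and 9.63 in WT IL-6 with TGFb, against 6.83 and 6.29 in WT TGFb (log2 change 3.58 ± 0.50 SE, adjusted p = 0.0121). Tmem176a read 9.23 and 9.05 with IL-6 and TGFb and 7.89 and 7.15 with TGFb, and Tmem176b read 9.61 and 9.94 with IL-6 and TGFb and 8.45 and 7.36 with TGFb. Their log2 changes were 1.61 ± 0.27 and 1.87 ± 0.31 (SE), with adjusted p = 0.0234 and 0.0231. These rises were smaller than those of the cytokines, and neither group overlapped the other.

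The receptor for IL-1, a cytokine that sustains Th17 cells, was not called without the block and was called with it. Il1r1 read 8.67 and 8.76 in WT IL-6 with TGFb and 6.66 and 6.55 in WT TGFb, a log2 difference of 2.11 ± 0.45 (SE) with adjusted p = 0.0823 without and 0.0129 with the replicate block. Il1r1 was also called in limma fits without the block to the 8 WT arrays (adjusted p = 0.0385) and to the 4 arrays compared (0.0215). The fit to the 4 arrays called more genes in all than the fit to all 16 arrays. Ltb4r1, the receptor for the lipid attractant leukotriene B4, read 7.72 and 7.88 with IL-6 and TGFb and 6.02 and 5.75 with TGFb, with adjusted p = 0.0588 and, with the block, 0.0417. Both genes had groups that were tight and apart.

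Other Th17 factors differed in the same direction without passing. Ahr, a receptor for small aromatic ligands that promotes IL-22, read 12.11 and 11.85 in WT IL-6 with TGFb and 9.74 and 8.59 in WT TGFb (log2 difference 2.81 ± 0.63 SE, adjusted p = 0.101, with the block 0.0617). Batf, an AP-1 partner of Irf4, read 10.60 and 10.49 with IL-6 and TGFb and 9.85 and 8.43 with TGFb (adjusted p = 0.414). Ikzf3, the factor Aiolos, read 12.82 and 11.71 with IL-6 and TGFb and 11.24 and 9.98 with TGFb (adjusted p = 0.533). In all 3 the groups did not overlap, as in 17.3% of all genes that were higher without overlap, so this alone says little. Ahr was called in the limma fit to the 4 arrays compared (adjusted p = 0.0479). That fit called more genes in all, 118 higher and 64 lower, against 59 and 7 in the fit to all 16 arrays. Ccr6, the chemokine receptor of Th17 cells, did overlap, at 7.98 and 9.63 with IL-6 and TGFb and 8.19 and 8.50 with TGFb.

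**Figure D2:**
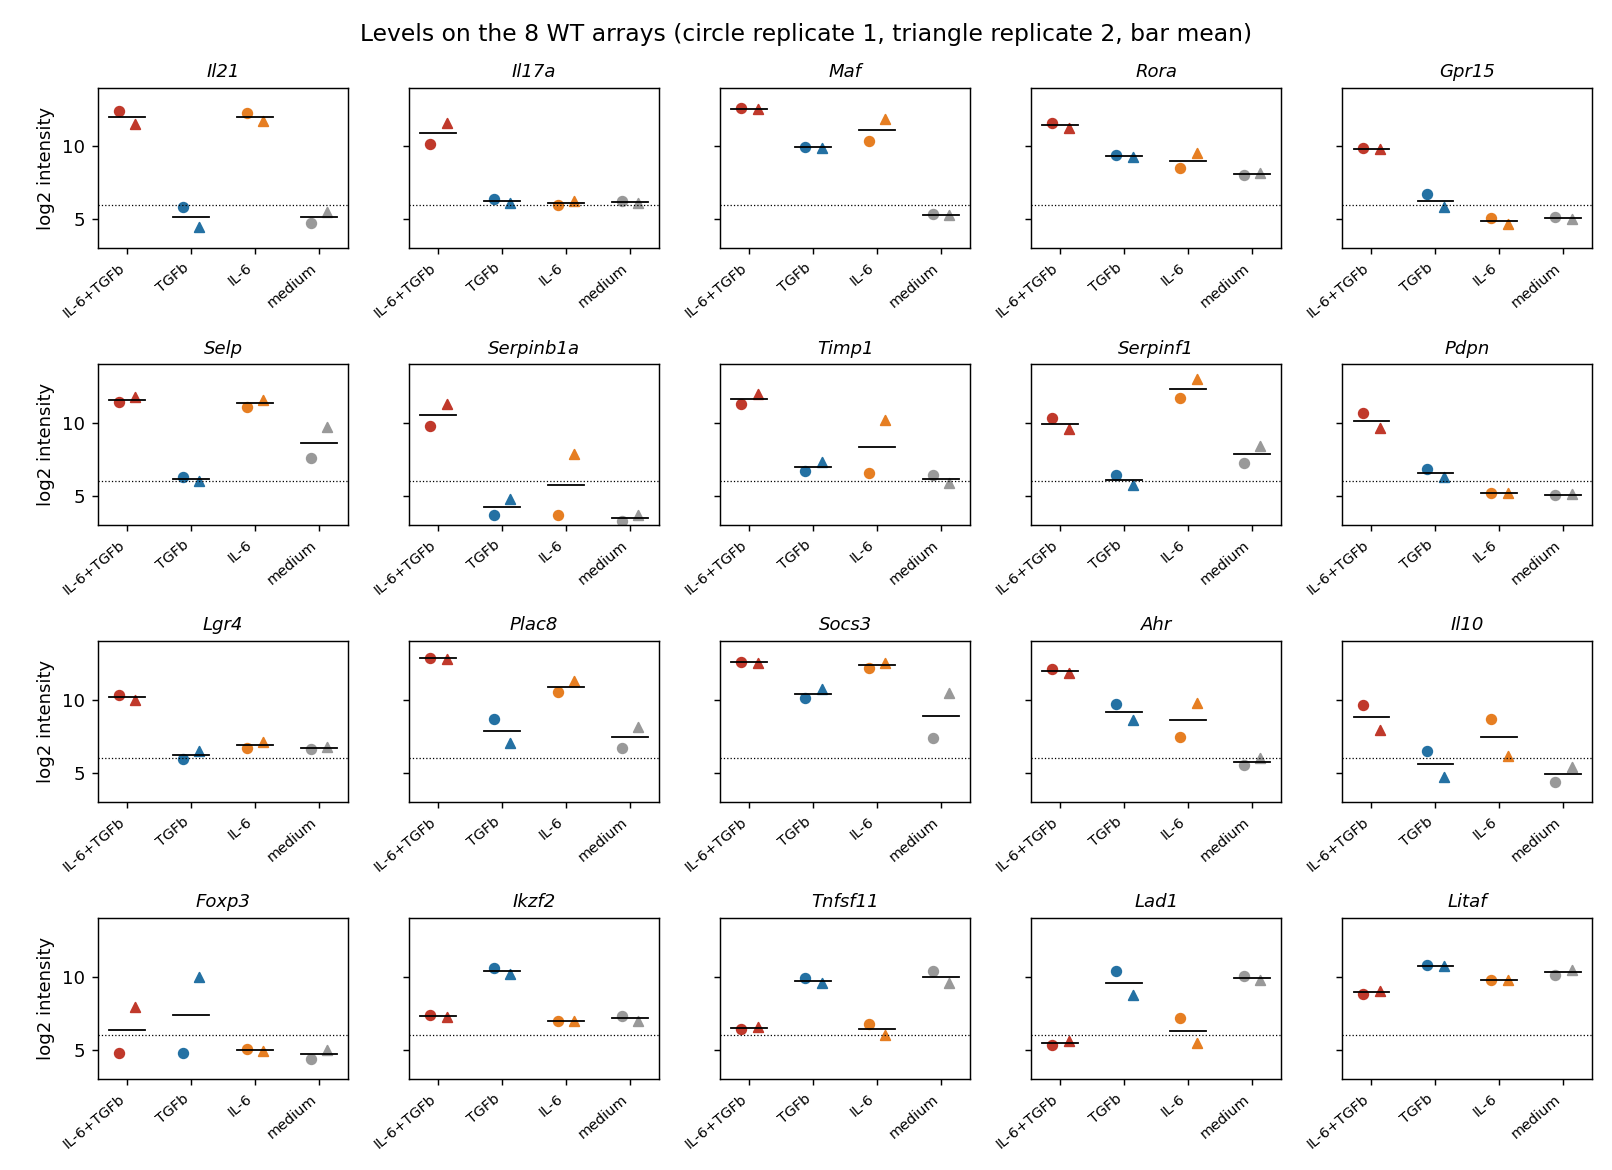
Log2 intensity of 20 genes on each of the 8 WT arrays by condition, with replicate 1 as a circle, replicate 2 as a triangle, the mean as a bar and the level minimum of 6 as a dotted line. Il21 is high in both conditions with IL-6, Il17a and Gpr15 are high only on the 2 arrays with IL-6 and TGFb, and Foxp3 is above the minimum only on the replicate 2 arrays with TGFb.

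The list of protease inhibitors was likewise chosen with earlier results of these data known. Of its 14 members 3 rose and 0 fell, beside 0.454% and 0.0538% of all genes. Of these 3, 2 inhibit proteases and 1, Serpinf1, is a serpin known not to. The list median was -0.17, so most other members did not lie on the high side. Serpinb1a, an intracellular inhibitor of neutrophil-type serine proteases, read 9.76 and 11.27 in WT IL-6 with TGFb and 3.70 and 4.81 in WT TGFb (log2 change 6.26 ± 0.99 SE, adjusted p = 0.019). Its TGFb level is background, and the mean with IL-6 and TGFb was 22.9-fold above the minimum. Timp1, an inhibitor of matrix metalloproteinases, read 11.27 and 12.00 with IL-6 and TGFb and 6.69 and 7.33 with TGFb (log2 change 4.63 ± 0.83 SE, adjusted p = 0.0348). Timp1 lost the call in the fit to the 8 WT arrays (adjusted p = 0.176) and without the doubted STAT3-deficient arrays (0.0683). Serpinf1 encodes PEDF, a secreted serpin without protease inhibition that acts on blood vessels. It read 10.32 and 9.56 with IL-6 and TGFb and 6.41 and 5.78 with TGFb (log2 change 3.84 ± 0.67 SE, adjusted p = 0.0307).

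Genes of cell homing and adhesion also rose. Among 21 chemokine and homing receptors 2 rose and 0 fell, beside 0.454% and 0.0538% of all genes, and the median was 0.45. Selp encodes P-selectin, the adhesion molecule best known from platelets and endothelium. It read 11.40 and 11.74 in WT IL-6 with TGFb, against 6.27 and 6.00 in WT TGFb (log2 change 5.43 ± 0.68 SE, adjusted p = 0.006), and the platelet markers beside it summed to 385 to 469 intensity units with IL-6 and TGFb and to 465 to 480 with TGFb. Of the 4 platelet markers 1 stayed under the minimum on all 4 arrays, and the part of platelets in the Selp values was not tested. Without TGFb, Selp read 11.10 and 11.56 in WT IL-6 and 7.63 and 9.69 in WT medium, so it was lowest in WT TGFb. Gpr15, which directs T cells into the lining of the colon, read 9.84 and 9.80 with IL-6 and TGFb and 6.69 and 5.86 with TGFb (log2 change 3.55 ± 0.29 SE, adjusted p = 0.00055). Gpr15 was also the 1 gene that rose among 20 members of the regulatory T cell list.

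Further genes with large changes had varied roles. Lgr4, a receptor for R-spondins that strengthens Wnt signalling, read 10.32 and 10.01 in WT IL-6 with TGFb and 5.95 and 6.49 in WT TGFb (log2 change 3.94 ± 0.37 SE, adjusted p = 0.00093). Plac8, a small cysteine-rich protein, read 12.87 and 12.81 with IL-6 and TGFb and 8.70 and 7.07 with TGFb (log2 change 4.95 ± 0.83 SE, adjusted p = 0.0253). Mgll, the lipase that breaks down monoacylglycerols, read 9.93 and 9.63 with IL-6 and TGFb and 7.0 and 6.27 with TGFb (log2 change 3.15 ± 0.56 SE, adjusted p = 0.033). Each of these was high on both arrays with IL-6 and TGFb. Cwh43, linked to the lipid part of GPI anchors in yeast, read 8.23 and 7.52 with IL-6 and TGFb and 4.64 and 4.39 with TGFb, where it was under the minimum (adjusted p = 0.00141). Alpk2, an alpha-type protein kinase, read 10.55 and 11.22 with IL-6 and TGFb and 7.52 and 7.71 with TGFb (adjusted p = 0.015). Fam217b read 9.29 and 9.44 with IL-6 and TGFb and 5.91 and 6.60 with TGFb (adjusted p = 0.0175), and Gm17767 read 10.10 and 9.49 with IL-6 and TGFb and 5.49 and 5.13 with TGFb (adjusted p = 0.00084).

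The IL-6 signalling chain itself gave no calls. Of 12 receptor chains, Janus kinases and STATs measured, 0 were called in either direction, with the block included, and the median log2 difference was 0.04. Il6st, which encodes gp130, read 9.43 and 9.98 in WT IL-6 with TGFb and 8.52 and 8.41 in WT TGFb (log2 difference 1.24 ± 0.42 SE, adjusted p = 0.389). Il6ra, the IL-6 binding chain, read 7.97 and 8.28 with IL-6 and TGFb and 7.14 and 7.91 with TGFb (adjusted p = 1.00). Stat3 differed by 0.02 ± 0.58 (SE), with the groups overlapping. Among 18 other cytokine receptors 1 rose, beside 0.454% of all genes. That gene was Il17ra, the receptor chain for IL-17A. It read 12.21 and 12.14 with IL-6 and TGFb and 10.89 and 10.50 with TGFb (log2 change 1.48 ± 0.27 SE, limma adjusted p = 0.0425).

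Of the 16 feedback inhibitors 0 were called. Socs3, the inhibitor that STAT3 induces to end gp130 signalling, read 12.61 and 12.50 in WT IL-6 with TGFb and 10.11 and 10.72 in WT TGFb. The groups did not overlap, yet the spread of Socs3 over the series was wide (log2 difference 2.14 ± 1.05 SE, adjusted p = 0.759, with the block 0.282). In the limma fit to the 4 arrays compared, which called more genes in all, Socs3 was called (adjusted p = 0.0302). Among 23 known STAT3 targets outside the Th17 list 1 rose and 0 fell, beside 0.454% and 0.0538% of all genes. Their median was 0.52, and 12 were higher without overlap (17.3% of all genes). The 1 was Sbno2, a corepressor that IL-10 and STAT3 induce in macrophages, whose promoter is printed above, at 9.40 and 9.66 with IL-6 and TGFb and 7.73 and 7.53 with TGFb (log2 change 1.90 ± 0.31 SE, adjusted p = 0.0207). Bcl3, an atypical IκB protein, read 9.91 and 10.74 with IL-6 and TGFb and 8.75 and 9.50 with TGFb, and Il4ra, the IL-4 receptor, read 11.57 and 11.14 with IL-6 and TGFb and 10.09 and 9.70 with TGFb, with adjusted p = 0.916 and 0.534. Hif1a, the hypoxia factor, read 13.35 and 13.28 with IL-6 and TGFb and 12.60 and 12.18 with TGFb (adjusted p = 0.665).

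Of the genes that fell, Lad1 and Tnfsf11 changed most. Lad1, ladinin, an anchoring filament protein of epithelia, read 5.36 and 5.64 in WT IL-6 with TGFb, against 10.39 and 8.75 in WT TGFb (log2 change -4.07 ± 0.63 SE, adjusted p = 0.0175). It thus fell under the level minimum, and the WT TGFb mean was 11.9-fold above that minimum. Tnfsf11 encodes RANKL, the cytokine that drives osteoclast formation and acts on dendritic cells. It read 6.41 and 6.54 with IL-6 and TGFb and 9.89 and 9.54 with TGFb (log2 change -3.24 ± 0.38 SE, adjusted p = 0.00427). Both arrays with IL-6 and TGFb were low and near each other.

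Scin, an actin-severing protein, read 5.0 and 5.58 in WT IL-6 with TGFb and 8.20 and 7.48 in WT TGFb (log2 change -2.55 ± 0.42 SE, adjusted p = 0.0233). It was the 1 called member of 7 in the list of the aryl hydrocarbon receptor and its targets, beside 0.507% of all genes. Scin fell while Ahr itself read higher. St14, the membrane protease matriptase, read 6.46 and 7.0 with IL-6 and TGFb and 8.80 and 8.71 with TGFb (adjusted p = 0.00637). Litaf, an endosomal protein, read 8.83 and 9.04 with IL-6 and TGFb and 10.77 and 10.71 with TGFb (log2 change -1.80 ± 0.19 SE, adjusted p = 0.0013). Ffar4, a receptor for long-chain fatty acids, fell by 1.46 and Adgre5, the adhesion receptor CD97, by 1.29 on the log2 scale, at adjusted p = 0.0207 and 0.0185.

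Of 20 regulatory T cell genes 1 rose (Gpr15) and 0 fell, beside 0.454% and 0.0538% of all genes. Without overlap, 10 were lower (26.6% of all genes). The list median was -0.63, at -0.16 in replicate 1 and -1.20 in replicate 2. Ikzf2, the factor Helios, read 7.40 and 7.23 in WT IL-6 with TGFb and 10.63 and 10.17 in WT TGFb. Its log2 difference was -3.09 ± 0.62 (SE), with adjusted p = 0.0613 without and 0.0313 with the replicate block. Ikzf2 was also called in the limma fit to the 8 WT arrays without the block (adjusted p = 0.014). Its levels with IL-6 and TGFb were near the 7.34 and 6.99 of WT medium. Foxp3 read 4.81 and 7.90 with IL-6 and TGFb and 4.81 and 9.99 with TGFb, so only replicate 2 held a difference, of -2.09, and in replicate 1 both arrays read as background (log2 difference -1.05 ± 1.40 SE, adjusted p = 1.00). Without the WT TGFb array of replicate 2 the Foxp3 difference was 1.55, without the WT IL-6 with TGFb array of replicate 1 it was 0.50. Tnfrsf9, the costimulatory receptor 4-1BB, read 10.76 and 10.87 with IL-6 and TGFb and 12.16 and 12.58 with TGFb (adjusted p = 0.776), and Tnfrsf18, which encodes GITR, read 12.36 and 11.92 with IL-6 and TGFb and 12.92 and 13.13 with TGFb (adjusted p = 0.89). Ctla4 and Il2ra, genes of regulatory and of activated cells, differed by 0.65 ± 0.38 and 0.52 ± 0.74 (SE), uncalled.

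Cytokines and factors of other helper lineages gave few calls. Of 19 Th1 genes 0 were called, with 1 lower under the block, which was Fasl, the death receptor ligand, at 4.46 and 4.32 in WT IL-6 with TGFb and 7.18 and 6.85 in WT TGFb (adjusted p = 0.119, with the block 0.0268). Tbx21, the Th1 factor T-bet, read 7.95 and 7.08 with IL-6 and TGFb and 9.82 and 8.29 with TGFb, and Gata3, the Th2 factor, read 7.16 and 6.93 with IL-6 and TGFb and 8.86 and 8.59 with TGFb. Neither Tbx21 nor Gata3 was called, and in both the groups did not overlap (26.6% of all genes were lower without overlap). In the limma fit to the 4 arrays compared, which called more genes in all, Gata3 was called (adjusted p = 0.0293). Ifng, the Th1 cytokine interferon-γ, read 5.70 and 5.13 with IL-6 and TGFb and 8.57 and 4.46 with TGFb, so 1 array of WT TGFb stood apart. Among 11 Th2 genes 1 rose, beside 0.454% of all genes. That gene was Ecm1, a secreted matrix protein of Th2 cells that aids their exit from lymph nodes. It read 11.73 and 11.10 with IL-6 and TGFb and 9.02 and 8.99 with TGFb (log2 change 2.41 ± 0.41 SE, limma adjusted p = 0.0253). Il9 and Il2 were not called. Il10, an anti-inflammatory cytokine, read 9.65 and 7.95 with IL-6 and TGFb and 6.51 and 4.70 with TGFb (log2 difference 3.19 ± 0.94 SE, adjusted p = 0.267).

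Genes of follicular helper T cells, which help B cells, lay on the high side. Of 16 members 1 rose, Il21, which is in the Th17 list too, and 0 fell, beside 0.454% and 0.0538% of all genes. Without overlap, 12 were higher (17.3% of all genes), and the list median was 0.80. Tox2, a factor of these cells, read 9.48 and 9.49 in WT IL-6 with TGFb and 7.69 and 7.04 in WT TGFb, with adjusted p = 0.0645 without and 0.0119 with the block. Pou2af1, the coactivator OBF-1, read 10.16 and 10.91 with IL-6 and TGFb and 5.49 and 3.91 with TGFb, a log2 difference of 5.83 ± 1.90 (SE) with adjusted p = 0.352. Cxcr5, the receptor that guides cells to B cell follicles, read 7.67 and 8.19 with IL-6 and TGFb and 4.81 and 5.17 with TGFb (adjusted p = 0.294). Bcl6, the lineage factor, read 7.85 and 8.80 with IL-6 and TGFb and 7.12 and 7.71 with TGFb (adjusted p = 0.947), and Icos, a costimulatory receptor, 12.04 and 12.36 with IL-6 and TGFb and 11.31 and 11.37 with TGFb (adjusted p = 0.11). In all 5 the groups did not overlap.

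TGFb pathway genes as a group stood near no difference, with 0 of 27 called and a median of 0.10. With the replicate block 2 were higher, Smad3, a signal-carrying SMAD, and Smad5, a SMAD of the BMP branch. Smad3 read 9.55 and 10.43 in WT IL-6 with TGFb, against 8.28 and 9.27 in WT TGFb. Its groups differed by 1.22 ± 0.56 (SE), with adjusted p = 0.703 without and 0.0105 with the block. Smad5 read 9.03 and 9.04 with IL-6 and TGFb and 7.89 and 8.01 with TGFb, with adjusted p = 0.0677 and, with the block, 0.0387. The markers of TGFb action read well above WT medium with IL-6 too, as Skil read 12.00 and 11.79 with IL-6 and TGFb and 12.01 and 12.30 with TGFb, and Smad7 9.97 and 9.84 with IL-6 and TGFb and 9.26 and 9.64 with TGFb. Itgae, the integrin chain CD103, read 8.87 and 6.98 with IL-6 and TGFb and 8.89 and 6.98 with TGFb, and was the higher in replicate 1 of both groups.

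**Figure D3:**
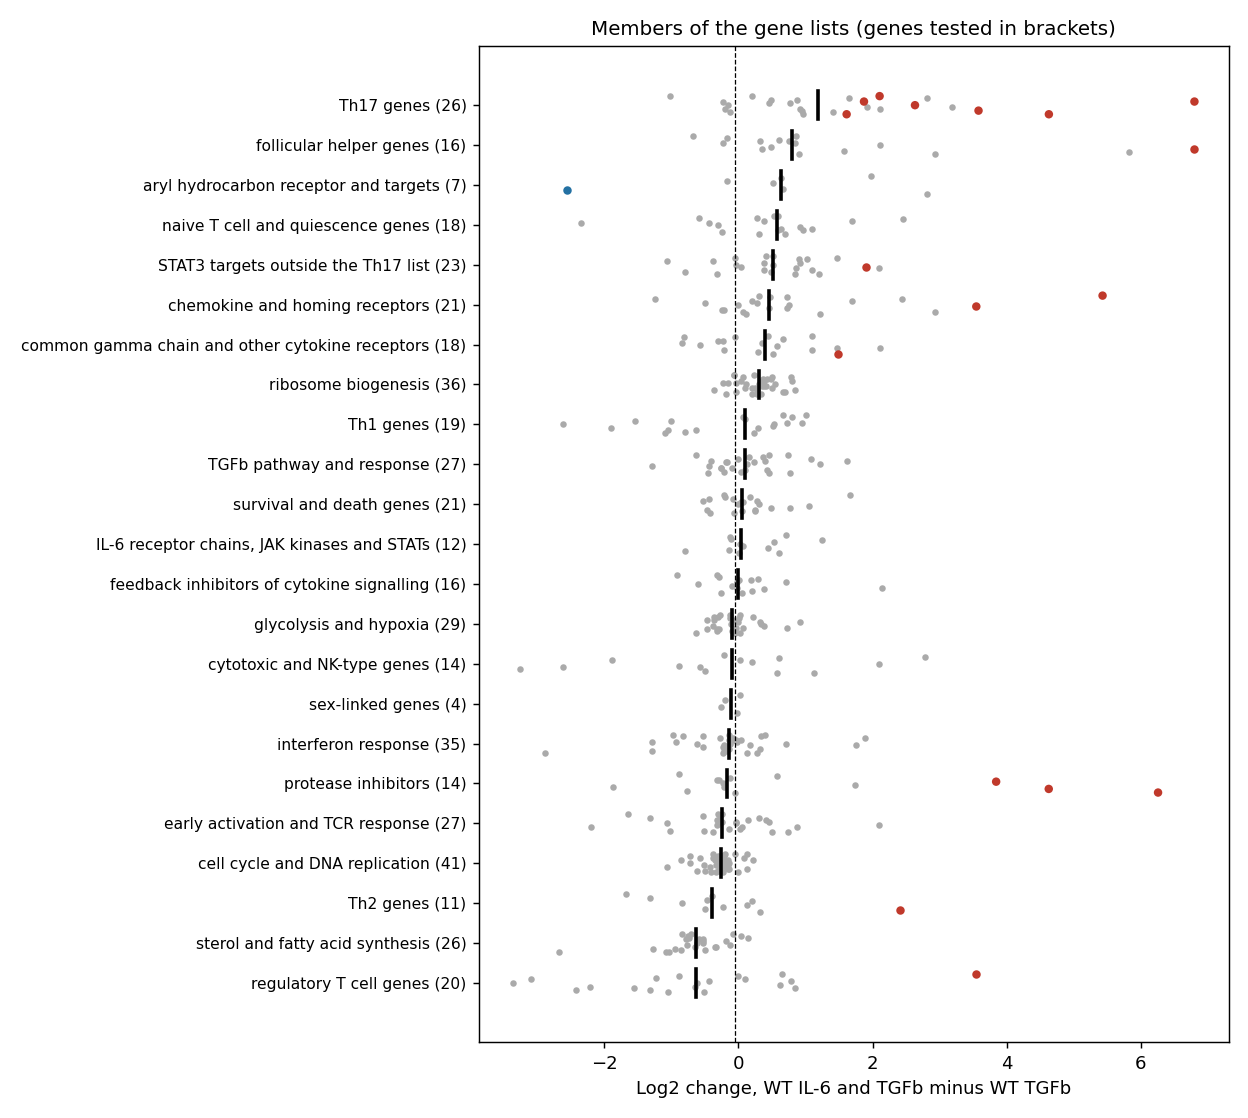
Log2 change (WT IL-6 with TGFb minus WT TGFb, means of 2 arrays each) of every tested member of each gene list, with called genes in red (higher) or blue (lower), a bar at the list's median and a dashed line at the median of all genes tested. Th17 genes have the highest median, at 1.19, and 7 red points, while the sterol and regulatory T cell lists have the lowest, at -0.63 each.

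In metabolism and growth, the lists of this paragraph gave 0 calls, with medians between -0.63 and 0.30. The median of 26 genes of sterol and fatty acid synthesis was -0.63, at -0.52 in replicate 1 and -0.79 in replicate 2, 24 of them had a negative difference, and 20 were lower without overlap (26.6% of all genes). Hmgcs1, an early enzyme of cholesterol synthesis, read 10.95 and 10.92 in WT IL-6 with TGFb and 11.88 and 12.06 in WT TGFb (log2 difference -1.03 ± 0.64 SE, adjusted p = 0.918). Scd1, the stearoyl-CoA desaturase, read 9.95 and 8.78 with IL-6 and TGFb and 12.39 and 11.70 with TGFb (adjusted p = 0.973). Of 41 cell cycle genes 37 had a negative difference, beside 7443 of all 13007 genes tested, and 18 were lower without overlap (26.6% of all genes). Their median was -0.26, at -0.54 in replicate 1 and -0.05 in replicate 2. In replicate 2 the median of all genes was -0.03. Pcna, the DNA polymerase clamp, read 13.30 and 13.40 with IL-6 and TGFb and 13.84 and 13.54 with TGFb, and Cdkn1a, the cell cycle inhibitor p21, read 11.16 and 11.13 with IL-6 and TGFb and 12.08 and 12.35 with TGFb, both uncalled. The 36 ribosome biogenesis genes had a median of 0.30, but of -0.11 in replicate 1 and 0.68 in replicate 2, so the replicates did not share a direction.

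Naive and quiescence genes lay on the high side, with a median of 0.57 over 18 genes and 0 called. Without overlap, 12 were higher (17.3% of all genes) and 4 lower (26.6% of all genes). Satb1, a chromatin organiser, read 12.80 and 12.78 in WT IL-6 with TGFb and 10.76 and 9.92 in WT TGFb (log2 difference 2.45 ± 0.71 SE, adjusted p = 0.258). Il7r, the IL-7 receptor, read 11.37 and 10.94 with IL-6 and TGFb and 10.38 and 9.73 with TGFb, and S1pr1, the receptor for lymph node exit, read 10.13 and 9.80 with IL-6 and TGFb and 8.22 and 8.31 with TGFb, with adjusted p = 0.888 and 0.537. Dapl1, a transcript of naive T cells, had the opposite direction, at 6.11 and 5.95 with IL-6 and TGFb and 9.05 and 7.73 with TGFb (adjusted p = 0.12). Among 27 early activation genes 0 were called, with 1 lower under the block. That gene, the nuclear receptor Nr4a3, read 9.75 and 9.73 with IL-6 and TGFb and 12.11 and 11.76 with TGFb (adjusted p = 0.102, with the block 0.0481).

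Cytotoxic and NK-type genes gave 0 calls among 14, with 1 higher and 1 lower under the block. The lower one was Fasl, described above. Klrd1, the CD94 chain of NK receptors, read 12.06 and 12.85 in WT IL-6 with TGFb and 8.71 and 10.64 in WT TGFb (log2 difference 2.78 ± 0.92 SE, adjusted p = 0.373, with the block 0.0339). Klre1, another lectin-like NK receptor chain, was called at 7.55 and 7.19 with IL-6 and TGFb and 5.58 and 5.49 with TGFb (log2 change 1.83 ± 0.23 SE, adjusted p = 0.00603), and it was named after its values were seen. The 5 NK cell markers, which include Klrd1, summed to 4440 to 7499 intensity units with IL-6 and TGFb and to 825 to 1749 with TGFb. Of the 2 that reached the minimum 1 was higher under the block, which was Klrd1, and Ncr1, a defining marker, read 5.39 and 5.49 with IL-6 and TGFb and 5.75 and 5.49 with TGFb, under the minimum. The part of NK cells in these values was not tested. Of 35 interferon response genes 0 were called, and with the block 1 was lower, the exonuclease Isg20, at 7.28 and 7.12 with IL-6 and TGFb and 9.62 and 10.56 with TGFb (adjusted p = 0.0917, with the block 0.0428). The glycolysis and hypoxia list (29 genes, median -0.09) and the survival and death list (21 genes, median 0.05) had 0 calls. Among the lists with 0 called genes in limma, an unadjusted p under 0.05 was reached by 3 of 12 genes of the IL-6 signalling chain, 2 of 16 feedback inhibitors, 3 of 27 TGFb genes, 3 of 19 Th1 genes and 5 of 14 cytotoxic genes. It was reached by 4 of 18 naive, 5 of 27 activation, 4 of 35 interferon and 2 of 41 cell cycle genes. The sterol, glycolysis and ribosome lists had 1 such gene each and the survival list 3, beside 7.23% of all genes tested.

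The same addition of IL-6 was measured in STAT3-deficient cells, on arrays that the WT comparison does not share. On 1 of these arrays, the library labelled STAT3-deficient TGFb replicate 1, the values stood apart. It read Il17a at 9.55, Ccr6 at 12.38 and Rora at 10.35, whereas the other 7 STAT3-deficient arrays read Il17a between 6.04 and 6.51. Its label and that of the STAT3-deficient IL-6 with TGFb array of replicate 1 were put in doubt by earlier results on these data. With all arrays kept, 0 genes (0%) were called in STAT3-deficient cells in limma, also with the block, and 473 (3.64%) passed an unadjusted p of 0.05. Over the 59 genes that rose in WT cells the STAT3-deficient change had a median of -0.07, from a lowest of -1.41 (Il17a) to a highest of 1.05 (Plac8). Over the 7 that fell in WT cells it had a median of 0.50. These genes were chosen by their WT change, so smaller changes on other arrays were likely beforehand. The share of all genes tested that stayed under 2-fold was not counted. Of the 66, 61 differed by less than 2-fold in STAT3-deficient cells, 1 by at least 2-fold in the WT direction (Plac8) and 4 by at least 2-fold in the opposite direction (Il17a, Rora, Lad1 and Scin). Without both doubted arrays, which leaves replicate 2 alone, 63 differed by less than 2-fold, 0 by 2-fold in the WT direction and 3 by 2-fold in the opposite direction (Fam217b, Fnbp1l and Lad1). Il17a then differed by 0.44, Rora by -0.72, Scin by 0.33 and Plac8 by 0.33, so the values of these 4 genes past 2-fold rest on the doubted arrays.

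The difference between the genotypes was tested as an interaction, and 10 genes were called (0.0769%), 8 with a higher change in WT cells (0.0615%) and 2 with a lower one (0.0154%). With the replicate block the count was 48 (0.369%). Without both doubted arrays 0 genes were called, while the 10 differences kept their sign and were 0.81 to 1.19 times as large, with Il21 at 6.43, Gm17767 at 4.55, Lgr4 at 4.34 and Rora at 2.83. That fit also had fewer arrays, and the cause of the lost calls was not tested. Leaving out a single array of the 8 moved the count in either direction. Leaving out STAT3-deficient arrays does not alter the WT part of each difference, such as 6.80 of 6.93 for Il21. The kept signs and sizes thus rest largely on the WT arrays and are no independent check. The calls depend on which arrays are kept. Without STAT3-deficient TGFb replicate 1, the array that reads as Il17a-positive, 3 were called.

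Il21 had the largest difference. It read 4.70 and 4.70 in STAT3-deficient IL-6 with TGFb and 5.32 and 4.32 in STAT3-deficient TGFb, so all 4 were under the minimum, and the WT change exceeded theirs by 6.93 ± 0.74 (SE, adjusted p = 0.0163). Gpr15 read 6.73 and 6.13 in STAT3-deficient IL-6 with TGFb and 5.70 and 5.58 in STAT3-deficient TGFb, a small difference in the WT direction (difference between genotypes 2.76 ± 0.42 SE, adjusted p = 0.0418). Tnfsf11 read 9.79 and 10.15 in STAT3-deficient IL-6 with TGFb and 9.25 and 9.68 in STAT3-deficient TGFb, so it stayed high with IL-6 (difference between genotypes -3.74 ± 0.54 SE, adjusted p = 0.0418). Litaf read 10.70 and 10.76 in STAT3-deficient IL-6 with TGFb and 10.36 and 10.61 in STAT3-deficient TGFb (difference -2.05 ± 0.26 SE, adjusted p = 0.0276). Lgr4, Cwh43 and Gm17767 were at or near the minimum on all 4 of these arrays, with differences of 3.65, 3.40 and 4.46. For Rora the difference was 3.50 ± 0.52 (SE, adjusted p = 0.0418), and the doubted TGFb array, at 10.35 against 9.19 in the other replicate, enters it. Sema6d and B4galnt4, a semaphorin and a glycosyltransferase, completed the 10, with differences of 2.35 and 2.68. Both genes were named after their values were seen. Sema6d has a further probe set that reached the minimum and had the opposite sign in the WT comparison.

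**Figure D4:**
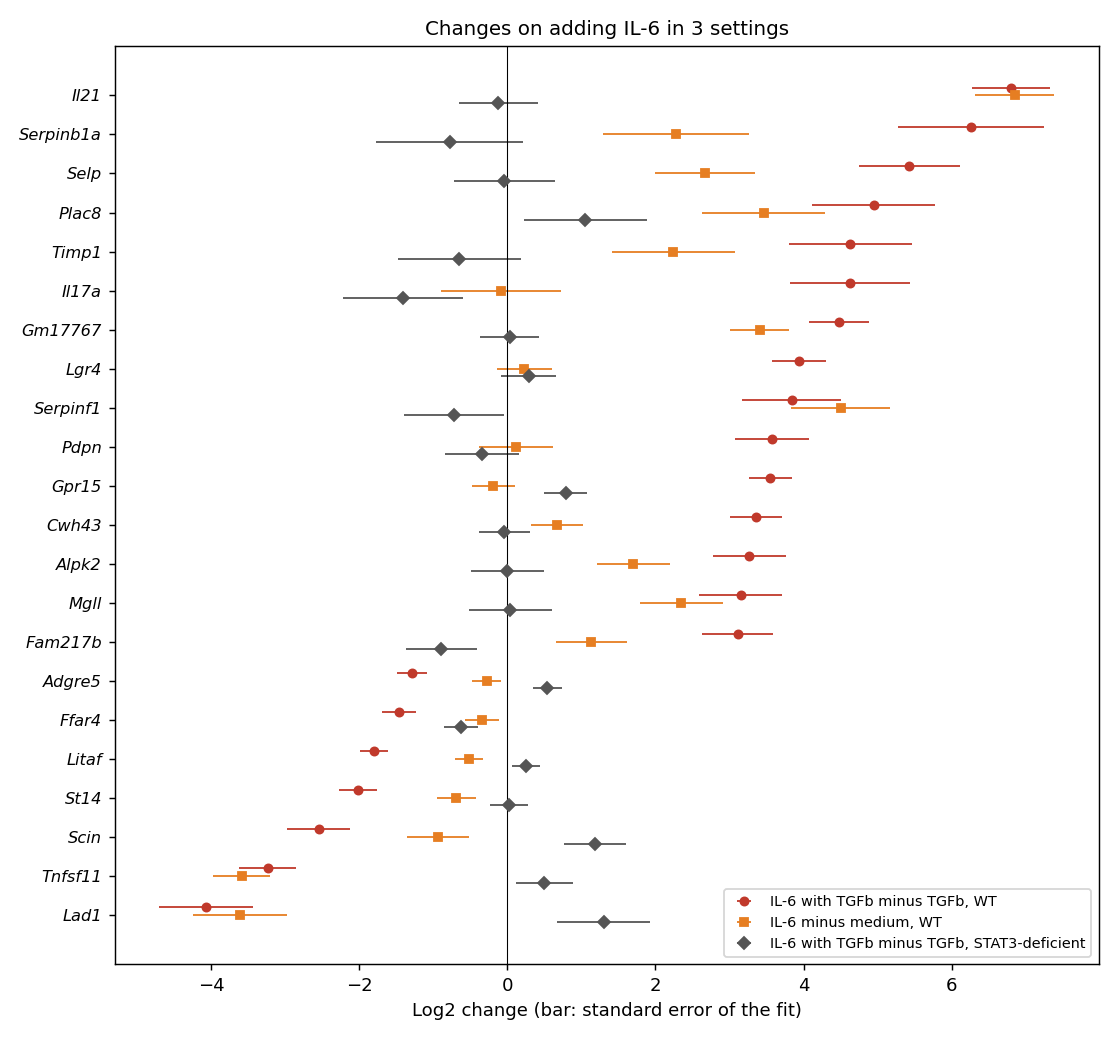
Log2 change on adding IL-6 (bars are the standard error of the fit) for the 22 called genes with the largest changes, in WT cells with TGFb (circles), in WT cells without TGFb (squares) and in STAT3-deficient cells with TGFb (diamonds). Il21 moves by 6.80 with TGFb and 6.85 without it, whereas Il17a and Gpr15 stay near 0 without it, at -0.08 and -0.19, and in STAT3-deficient cells the values lie between -1.41 (Il17a) and 1.30 (Lad1).

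IL-6 was also added to WT cells without TGFb. Set against medium it gave 37 calls (0.284%), 29 genes higher (0.223%) and 8 lower (0.0615%), and 218 (1.68%) with the block, and the 2 comparisons share no array. Of the 66 genes called with TGFb, 10 were called here too, all with the same sign, which is 15.2% of the 66 and 27.0% of the 37. They were Il21, Maf, Ecm1, Serpinf1, Gm17767, Tha1, Atp6v0d2, Adprm, Lad1 and Tnfsf11. By size, 23 of the 66 changed at least 2-fold in the same direction without TGFb, 43 less than 2-fold and 0 at least 2-fold in the opposite direction.

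Il21 rose in both settings. It read 12.23 and 11.72 in WT IL-6 and 4.75 and 5.49 in WT medium (log2 change 6.85 ± 0.53 SE, adjusted p = 0.000505), and its 2 changes differed by -0.04 ± 0.74 (SE). Without TGFb, Maf read 10.34 and 11.82 in WT IL-6 and 5.32 and 5.29 in WT medium, and its WT TGFb level of 9.92 and 9.90 already stood far above medium. Serpinf1 read 11.71 and 12.98 in WT IL-6 against 7.28 and 8.41 in WT medium, and Tnfsf11 read 6.79 and 6.00 in WT IL-6 and 10.42 and 9.55 in WT medium. Both arrays with IL-6 were beyond both medium arrays in each of these genes.

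The changes with and without TGFb differed in 2 genes (0.0154%), 1 in each direction (0.00769% each), and in 3 (0.0231%) with the block. Gpr15 was the gene with the higher change. It read 5.09 and 4.70 in WT IL-6 and 5.17 and 5.0 in WT medium, all under the minimum, and the change with TGFb exceeded the change without it by 3.74 ± 0.42 (SE, adjusted p = 0.0209). The other was Hhex, a homeobox repressor, which read 9.36 and 8.83 in WT IL-6 and 5.78 and 6.39 in WT medium. With TGFb, Hhex read 5.95 and 5.58 with IL-6 and 5.95 and 5.93 without, so IL-6 went with a high Hhex only without TGFb (difference between the settings -3.18 ± 0.38 SE, adjusted p = 0.0209). Il17a read 5.95 and 6.25 in WT IL-6 and 6.27 and 6.09 in WT medium, and its difference between settings was 4.71 ± 1.15 (SE, adjusted p = 0.613). A fit to the 8 WT arrays alone called 0 genes in this test, and without 1 array of the 8 the count ran between 0 and 142, the highest without WT IL-6 replicate 2.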

How the data were processed

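Gene expression was measured on 16 Affymetrix arrays covering 2 genotypes under 4 conditions with 2 arrays each. The deposited values are intensity values made by the authors with RMA, per the submitters' processing notes. The sources used here give neither a version nor settings for it. The values were linear whole numbers between 6 and 37243, although RMA output is normally log2, and steps are coarse at the low end. Depth cannot be given for arrays, and the number of arrays limits the precision.

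Log2 was taken with no pseudocount. Of 45101 probe sets, 34945 had 1 gene symbol in the platform annotation, 932 several and 9160 none, and 64 controls were left out. They named 18193 genes, each read by its brightest probe set (mean over 16 arrays). Genes that reached log2 6 on at least 2 arrays were tested (13007), and 5186 were set aside. This minimum stands in for a detection call.

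All 16 arrays entered limma 3.58.1 (R 4.3.3) with a mean for each group and 8 residual degrees of freedom, and no replicate block. Tests were two-sided, with Benjamini-Hochberg adjustment over the 13007 genes within each comparison. The code was tested on simulated data. Deviations of same-numbered arrays from their group means correlated at 0.107 to 0.863 in all 28 pairs of groups (median 0.333), so the replicate numbers, taken from the titles, pair the samples. Blocked values are given where they change a call or a count by over 1.5 times. Other alternatives were the arrays in the fit, normalization, pseudocount, filter, probe sets, array weights, variance prior and leaving out arrays.

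Genes were named by rule: up to 15 called genes each way with the largest changes and no overlap between groups, a panel of 32 genes (28 measured), up to 4 called genes of each of 23 lists, and up to 5 each way in each test of a difference between changes. Other genes, uncalled list members included, were named after their values were seen. The comparison, members and lists were chosen with earlier results of these data known. Promoter sequences are from RefSeq (GRCm38.p6). Some genes are not reported here.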

Additional observations from a re-analysis of the deposited data

Results flagged for a closer look

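The change on adding IL-6 to TGFb differed between WT and STAT3-deficient cells in 10 genes by limma's test of the interaction. In 8 the WT change was the higher one, by a log2 difference of 6.93 for Il21, 4.46 for Gm17767, 3.65 for Lgr4, 3.50 for Rora, 3.40 for Cwh43, 2.76 for Gpr15, 2.68 for B4galnt4 and 2.35 for Sema6d. In 2 it was the lower one, by -3.74 for Tnfsf11 and -2.05 for Litaf. The library labelled STAT3-deficient TGFb replicate 1, which read Il17a and Ccr6 high, enters only the STAT3-deficient part of all 10 values. Without it and the STAT3-deficient IL-6 with TGFb array of replicate 1, 0 of them were called, and the differences were 0.81 to 1.19 times as large with the same sign.

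The change on adding IL-6 also differed between WT cells with and without TGFb in 2 genes. The change with TGFb exceeded the change without it by 3.74 for Gpr15, and for Hhex the difference was -3.18, the change with TGFb being the lower one.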

How the results depend on the processing

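Against 66 called genes for IL-6 added to TGFb in WT cells, the count was 141 with the replicate block, 182 from a fit to the 4 arrays compared, 409 with array weights, 122 with the block on the WT arrays alone (added after the data were seen), and 12 to 17 with 1 array left out. It lay between 62 and 96 under the other 8 alternatives. The split of higher to lower genes, 59 to 7 as reported, was 108 to 33 with the block, 118 to 64 on the 4 arrays, 259 to 150 with weights, 81 to 41 with the block on the WT arrays, 47 to 15 on the WT arrays and 72 to 24 without the doubted arrays. For the difference between genotypes, 10 as reported, the count was 48 with the block, 26 with array weights, 0 without both doubted STAT3-deficient arrays and 0 to 130 with 1 array left out. For the difference between IL-6 with and without TGFb, 2 as reported, it was 0 on the WT arrays alone, with and without the block, 1 after quantile normalization, 6 without both doubted arrays and 0 to 142 with 1 array left out. The causes were not tested.

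Of 599 values of 50 named genes under alternatives that keep the 4 arrays, 560 kept direction and side of the threshold. The call was lost in 21 values of 11 genes (Serpinb1a, Timp1, Serpinf1, Fam217b, Lad1, Tnfsf11, Adgre5, Rora, Maf, Ecm1 and Il17ra). It was gained in 17 values of 6 genes (Ikzf2, Il1r1, Ahr, Socs3, Gata3 and Il10). In 1 value the sign turned, Itgae at 0.02 after quantile normalization. With 1 array left out, 79 of 200 values, of 21 genes, lost the call. The sign then turned only in uncalled genes, whose differences ran between -0.18 and 0.22 for Stat3, -0.37 and 1.28 for Ccr6, -3.64 and 1.55 for Foxp3, -0.96 and 0.94 for Itgae, -3.15 and 0.96 for Ifng, and -0.27 and 2.56 for Il2. A fit that leaves out 1 array assumes that the lone array varies like the other groups. Changes of genes whose lower group lay under the level minimum, 15 of the 59 that rose and 2 of the 7 that fell, depend on the background.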

Other observations

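Of the 59 genes that rose, several outside the lists named above act at the cell surface or outside the cell, and all were named after their values were seen. Acvr2a, a receptor for activins of the TGFb family, read 9.97 and 10.17 in WT IL-6 with TGFb and 7.85 and 8.09 in WT TGFb (log2 change 2.11 ± 0.30 SE, limma adjusted p = 0.0138). Fst, which encodes follistatin, the secreted inhibitor of activins, rose with it, at 7.42 and 7.43 with IL-6 and TGFb and 5.93 and 5.93 with TGFb (log2 change 1.5 ± 0.21 SE, adjusted p = 0.0121). Emb, the adhesion protein embigin, read 12.55 and 12.72 with IL-6 and TGFb and 9.97 and 10.16 with TGFb (log2 change 2.57 ± 0.38 SE, adjusted p = 0.0142). Cd86 is a costimulatory ligand best known from antigen-presenting cells. It read 7.17 and 7.83 with IL-6 and TGFb and 5.67 and 5.78 with TGFb (limma adjusted p = 0.0253). The dendritic cell markers summed to 3010 to 3062 intensity units with IL-6 and TGFb and to 4094 to 5111 with TGFb. The part of dendritic cells in the Cd86 values was not tested. Prg4, the joint lubricant lubricin, read 9.34 and 9.92 with IL-6 and TGFb and 6.85 and 7.29 with TGFb (log2 change 2.56 ± 0.24 SE, adjusted p = 0.000929), and Crispld2, a secreted protein, read 10.89 and 11.37 with IL-6 and TGFb and 7.64 and 8.68 with TGFb (adjusted p = 0.0348). Ddr1, a collagen receptor kinase, read 9.94 and 9.90 with IL-6 and TGFb and 7.70 and 7.97 with TGFb, with 1 of its 7 further probe sets bright and of opposite sign.

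Genes of the cell interior also rose. Fnbp1l, a membrane-bending protein that links to actin, read 11.23 and 11.24 in WT IL-6 with TGFb and 8.63 and 8.91 in WT TGFb (log2 change 2.46 ± 0.36 SE, adjusted p = 0.0139). Ssh2, a phosphatase that activates the actin-severing protein cofilin, read 12.31 and 12.58 with IL-6 and TGFb and 10.27 and 10.49 with TGFb (log2 change 2.07 ± 0.31 SE, adjusted p = 0.0142). Gli3, a factor of the Hedgehog pathway, read 7.84 and 8.68 with IL-6 and TGFb and 6.17 and 6.49 with TGFb (adjusted p = 0.0169), and Adarb1, an RNA-editing deaminase, read 8.99 and 9.11 with IL-6 and TGFb and 7.22 and 7.36 with TGFb (adjusted p = 0.0152). Fbxw7, a ubiquitin ligase subunit that marks MYC and other growth regulators for breakdown, read 10.25 and 9.87 with IL-6 and TGFb and 8.50 and 8.82 with TGFb (adjusted p = 0.0307), and Tnip2, an inhibitor of NF-κB signalling, read 9.81 and 9.41 with IL-6 and TGFb and 8.21 and 8.22 with TGFb (adjusted p = 0.015). In STAT3-deficient cells the log2 difference of these 13 genes lay between -0.58 (Fnbp1l) and 0.82 (Prg4). Without both doubted STAT3-deficient arrays it was -1.14 for Fnbp1l and 0.49 for Prg4.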
